A study of Mus musculus with 12 samples.

Results

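The annotated long noncoding RNA (lncRNA) table of this mouse mammary gland series holds 1822 transcripts of 1533 genes, and 364 of these transcripts, from 297 genes, carry a gene type of antisense or antisense_RNA. These 297 genes are described here. They were taken by that gene type alone, 268 as antisense and 29 as antisense_RNA. Of the 297 genes, 255 have 1 transcript and the most is 6. A symbol ending in os or as was borne by 47 genes, and for 45 of them the rest of the symbol names a protein-coding gene in the files (43 distinct sense genes). Outbred ICR mice at pregnancy day 17 gave the RNA, taken from the 4th inguinal gland, and each of 3 groups has 4 libraries. Met mice ate a diet lacking methionine and were injected with methionine into the peritoneum, in an amount equal to 35% of the methionine in the control diet. Met-Met mice were handled like Met mice, but methionyl-methionine, a dipeptide of methionine, made up 25% of the injected methionine. The labels say of the Control group only that there was a control diet. Diet, injection and the amount of methionine therefore cannot be told apart in a comparison with that group. The comparisons ask how antisense transcript levels differ with the methionine supply and with the dipeptide. Whether the 4 libraries of a group are 4 mice is not in the labels, so a p-value here measures the spread among libraries only, and that spread may be technical.

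An antisense lncRNA is transcribed from the strand opposite another gene, often overlapping it or starting near its promoter. Some act on the gene they face: Airn and Kcnq1ot1 are imprinted antisense RNAs that silence neighbouring genes on the chromosome they come from, and the ZEB2 antisense transcript of human cells alters splicing of the ZEB2 message. For most genes with a Gm or Rik symbol no role is known. The sources used here do not say that reads were assigned by strand, so reads from a gene and from its antisense partner cannot be told apart, for any pair described below. In bulk tissue, fewer cells of a type and less RNA per cell cannot be told apart either.

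Levels are FPKM (fragments per kilobase of transcript, relative to sequencing depth), summed per gene and divided by a library factor taken from the coding genes (scaled FPKM). The depth of the libraries is unknown. Csn2, a casein gene, was at 25147 to 90760 scaled FPKM and Elf5, an alveolar transcription factor, at 260 to 432 over the 12 libraries, as fits mammary tissue. Libraries differed in other RNA. Met 3, Met 4 and Met-Met 2 held 9305, 9013 and 9230 FPKM of the noncoding gene Gm26917, and the remaining 9 libraries 72.3 to 99.2. The 10 B cell markers summed to 1.53 to 20.4 scaled FPKM in Met, 2.28 to 18.9 in Met-Met and 1.59 to 87.7 in Control, and their mean log2 level was above 1 in 6 libraries (Met 4, Met-Met 1, Met-Met 3 and Control 1 to 3). The 8 skeletal muscle markers summed to 285 in Met 2 and to 6.15 or less in every other library. The 10 adipocyte markers summed to 1072 to 1439 in Met, 554 to 1438 in Met-Met and 1914 to 2309 in Control, with none at 0. Of these 10, 7 fell in Met and 8 fell in Met-Met against Control, where 14.7% and 9.30% of tested coding genes fell. The 8 luminal and secretory markers, Csn2 among them, summed to 110225 to 169195 in Met, 69128 to 102845 in Met-Met and 42173 to 100323 in Control, and the 6 myoepithelial markers to 241 to 308 in Met, 399 to 461 in Met-Met and 433 to 503 in Control. On both sums, Met did not overlap the other groups. Csn2 alone was at 62616 to 90760 scaled FPKM in Met, so it weighs heavily in the luminal sum. The mean log2 level of the luminal markers did overlap. It was 9.818 to 10.554 in Met, 10.222 to 10.656 in Met-Met and 9.692 to 10.297 in Control. Of the 8 luminal markers, 3 rose and 1 fell in Met against Control (13.6% and 14.7% of coding genes). The 6 fibroblast markers summed to 460 to 599 in Met, 837 to 1257 in Met-Met and 1011 to 1325 in Control. The mean log2 levels of the myoepithelial and of the fibroblast markers did not overlap between Met and the other groups. The myoepithelial mean was 5.036 to 5.293 in Met, 5.559 to 5.633 in Met-Met and 5.429 to 5.6 in Control. The fibroblast mean was 5.699 to 5.993 in Met, 6.271 to 6.856 in Met-Met and 6.498 to 6.943 in Control. Of the 6 fibroblast markers, 4 fell in Met against Control. In Met-Met against Met 4 rose, against 5.93% of coding genes, and in both comparisons none passed the other way.

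RefSeq (build GRCm38.p6) matched 165 of the 297 antisense genes by symbol or synonym, and gave a strand for 132. A coding gene on the opposite strand lay over 84 of those 132. The promoters below belong to the 4 antisense genes that had a RefSeq promoter and were called in the most comparisons, and among those had the smallest p. Each is 300 bases around the start of the gene, and capitals mark TTCNNNGAA, the palindrome bound by STAT5, the factor that prolactin activates in the gland. Gm12863 starts in chr4:118954870-118955169 on the minus strand, Gm36840 in chr5:32354780-32355079 on the minus strand, Gm15860 in chr5:123345093-123345392 on the minus strand, and Gm16124 in chr9:53666843-53667142 on the plus strand.
Gm12863: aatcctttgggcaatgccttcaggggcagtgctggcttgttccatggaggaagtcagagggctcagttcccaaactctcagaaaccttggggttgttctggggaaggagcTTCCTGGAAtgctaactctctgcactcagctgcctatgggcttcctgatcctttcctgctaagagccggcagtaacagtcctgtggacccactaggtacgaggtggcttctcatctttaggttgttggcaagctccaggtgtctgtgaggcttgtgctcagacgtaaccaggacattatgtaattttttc
Gm36840: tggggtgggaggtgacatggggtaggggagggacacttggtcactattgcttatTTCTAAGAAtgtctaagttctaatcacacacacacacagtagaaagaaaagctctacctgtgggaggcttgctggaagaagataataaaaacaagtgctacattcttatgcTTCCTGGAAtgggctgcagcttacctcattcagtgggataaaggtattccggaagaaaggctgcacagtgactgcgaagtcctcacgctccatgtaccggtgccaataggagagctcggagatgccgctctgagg
Gm15860: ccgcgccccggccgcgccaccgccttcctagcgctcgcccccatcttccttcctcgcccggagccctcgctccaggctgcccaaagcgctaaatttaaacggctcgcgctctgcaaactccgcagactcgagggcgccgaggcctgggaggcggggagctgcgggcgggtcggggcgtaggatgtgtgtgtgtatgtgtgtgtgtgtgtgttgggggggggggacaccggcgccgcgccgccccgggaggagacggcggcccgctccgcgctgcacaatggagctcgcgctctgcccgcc
Gm16124: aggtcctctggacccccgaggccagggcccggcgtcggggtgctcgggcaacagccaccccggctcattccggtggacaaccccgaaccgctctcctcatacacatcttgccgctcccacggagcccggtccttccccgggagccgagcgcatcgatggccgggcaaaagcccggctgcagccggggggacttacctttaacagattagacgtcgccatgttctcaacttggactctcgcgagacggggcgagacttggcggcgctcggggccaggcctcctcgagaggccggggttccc
The Gm12863 window holds 1 match and the Gm36840 window 2, while the other windows hold none. The palindrome was searched on both strands, which read the same, and 8.47% of 27025 RefSeq promoter windows of that length hold it. Neither TGATGNAA, the core bound by ATF4, nor TATAAA, the TATA box, was found on either strand of the 4 windows. These occur in 4.06% and 14.2% of all windows. The windows also differ in CG dinucleotides, with 38 in Gm15860 and 30 in Gm16124, against 3 in Gm12863, 6 in Gm36840 and a median of 7 over all windows. A match is a run of letters and not a measured binding site.

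Antisense genes were mostly low. Of the 297 genes, 153 reached a mean of 0.5 scaled FPKM over the 12 libraries and were tested among 888 lncRNA genes of all types. Their median level was 1.08 scaled FPKM, 72 lay under 1 and 14 reached 5 or more. The 144 genes below the minimum had a median mean of 0.250, 68 of them were listed at 0 in at least 1 library and 1 in all 12, and 10 reached 1 scaled FPKM in some library. After BC018473, described next, the highest means were those of Gm16136 (17.5), Gm12863 (15.8), Tnfsf13os (11.6) and Gm15635 (11.5 scaled FPKM). Gm16136 was at 17.0 to 19.5 scaled FPKM in Met, 15 to 22.4 in Met-Met and 13.0 to 19.3 in Control, so the groups overlapped. Gm15635 ranged more widely, at 5.77 to 31.9 in Met, 6.33 to 10.6 in Met-Met and 4.67 to 17.5 in Control. The number of antisense genes listed above 0 was 270 to 280 in Met, 265 to 282 in Met-Met and 275 to 286 in Control.

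BC018473, an antisense gene within 10 kb of St6galnac1, had the highest mean of all, 93.3 scaled FPKM, and it was high in 2 libraries. It was at 686, 0.363, 1.58 and 426 scaled FPKM in Met 1 to 4, against 0.970, 0.707, 0.359 and 1.08 in Met-Met and 0.171, 0.866, 0.221 and 0.960 in Control. Each of its 4 transcripts was high in the same libraries, at 99.8 to 232 scaled FPKM in Met 1 and 24.3 to 215 in Met 4. St6galnac1, which adds sialic acid to O-linked sugar chains, was also highest there, at 4.11, 0.178, 0.0727 and 7.23 scaled FPKM in Met, against 0.0615 to 0.250 in Met-Met and 0 to 0.404 in Control. Met 1 and Met 4 stood apart at this locus, Met 2 lay within the range of the other groups and Met 3 just above it for BC018473. BC018473 was not called, with a log2 fold change of 4.76 ± 1.64 (SE) in Met against Control and an adjusted p of 0.0849. Gm26917 was high in Met 4 and not in Met 1, and B cell markers averaged 1.457 log2 units in Met 4 and 0.192 in Met 1. Other markers set both libraries apart from Met 2 and Met 3: the luminal and secretory markers averaged 9.950 and 9.818 log2 units in Met 1 and Met 4, against 10.366 and 10.554, and the myoepithelial markers 5.293 and 5.219, against 5.036 and 5.045. In Met-Met and Control BC018473 was at 1.08 scaled FPKM or less. There the luminal markers averaged 10.222 to 10.656 in Met-Met and 9.692 to 10.297 in Control. The myoepithelial markers averaged 5.559 to 5.633 in Met-Met and 5.429 to 5.6 in Control. The part of Gm26917 and of these markers in the result was not tested. BC018473 made up 63.3% and 52.8% of the summed antisense FPKM of Met 1 and Met 4, and 0.393% or less in every other library.

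**Figure D1:**
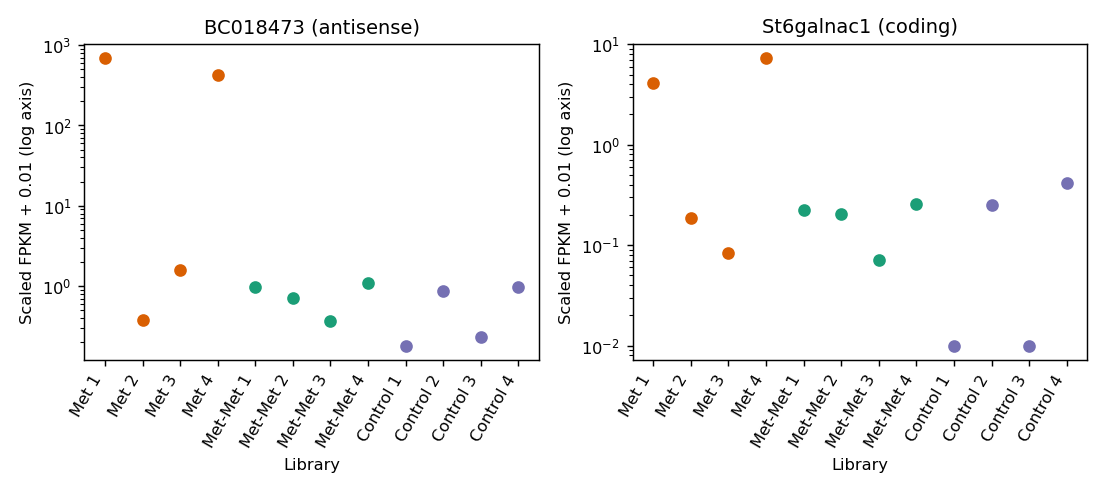
Scaled FPKM of BC018473 (left) and of the coding gene St6galnac1 beside it (right) in each library, on log axes after adding 0.01, with 1 point per library. Met 1 and Met 4 lie far above the other 10 libraries in both panels, and St6galnac1 is listed at 0 in Control 1 and Control 3.

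Without BC018473, the antisense genes summed to 398, 402, 402 and 381 scaled FPKM in Met 1 to 4, to 335, 376, 294 and 316 in Met-Met and to 327, 335, 329 and 386 in Control. The Met mean of 396 ± 9.78 (SD, n = 4) was above the Met-Met mean of 330 ± 34.7 and the Control mean of 344 ± 28.4. The Met libraries lay close together, and Control 4 overlapped them. The order depends on the scaling: with FPKM as deposited, the Met mean minus the Control mean was −27.5 FPKM.

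In Met against Control, 16 of the 153 tested antisense genes changed (10.5%), against 8.22% of all 888 lncRNA genes tested. By gene type, the called share was 12.3% of lincRNA (intergenic), 7.09% of processed_transcript and 5.51% of TEC (unconfirmed) genes. Of the 16, 10 rose and 6 fell, against 3.60% and 4.62% of all tested genes. At an unadjusted p under 0.05 there were 46 (30.1%, against 24.9% of all tested). In 27 genes (17.6%) the 4 Met libraries did not overlap the 4 Control libraries, against 15.0% of all tested. The median log2 fold change was 0.15 over the antisense genes and −0.09 over all tested lncRNA genes, and 100 of 153 lay above 0, against 362 of all 888. The median was 0.02 over lincRNA, 0.00 over processed_transcript and −0.23 over TEC genes. The antisense median and that of all lncRNA genes move with the scaling, to −0.12 and −0.31 for FPKM as deposited. In that setting 5 antisense genes were called higher and 14 lower. With divisors from the lncRNA table they were 0.20 and −0.02, with 15 higher and 5 lower.

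**Figure D2:**
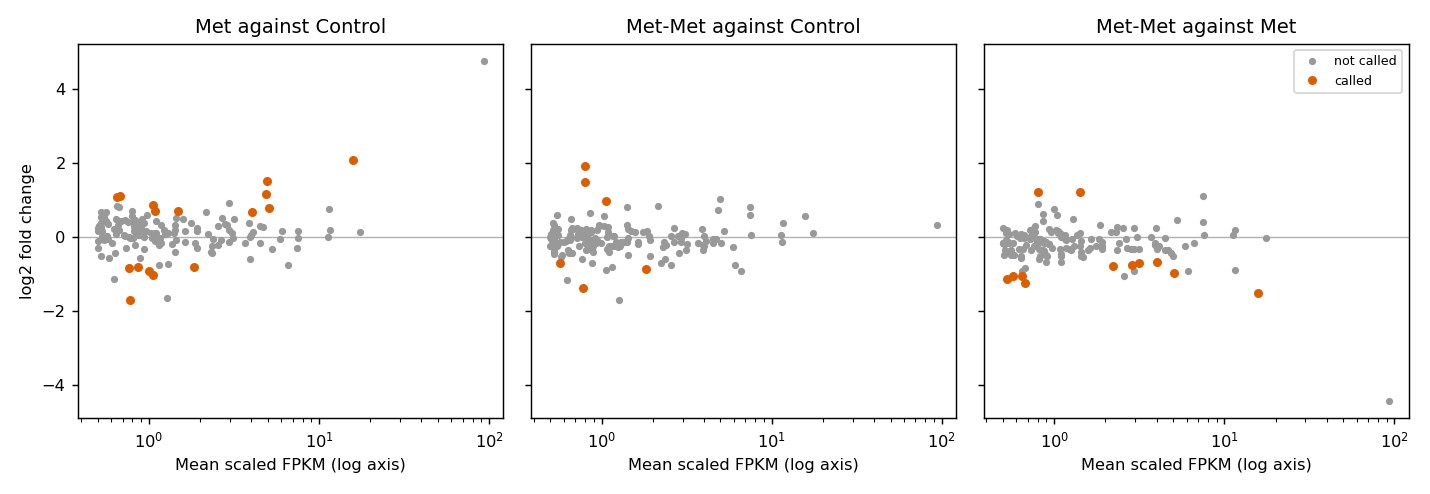
Fold change (log2, vertical) against mean level (scaled FPKM, log axis) of the 153 tested antisense genes in the 3 comparisons, with called genes in orange and 1 point per gene. The point at a mean of 93.3 is BC018473, which has the most extreme fold change in the panels with Met and was not called.

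Gm12863 had the largest rise. It lies within 10 kb of Lao1 on the strand opposite to it, without overlap, and Lao1 encodes an L-amino acid oxidase that is secreted into mouse milk. It was at 27.2, 40.6, 41.0 and 15.2 scaled FPKM in Met, 11.4, 8.89, 7.19 and 12.6 in Met-Met and 5.33, 7.67, 6.91 and 6.0 in Control. Every Met library was above every Met-Met and Control library. The log2 fold change was 2.08 ± 0.28 (SE, adjusted p = 0.000877) in Met against Control and −1.51 ± 0.28 (adjusted p = 0.00849) in Met-Met against Met, 2 comparisons that share the Met libraries. The luminal sum was likewise higher, and the myoepithelial and fibroblast sums lower, in every Met library than in all others. The mean log2 level of the luminal markers overlapped between the groups. The mean log2 levels of the myoepithelial and fibroblast markers were lower in every Met library than in all others. The part of these markers in this result was not tested. Both calls were kept in all 12 fits that left out 1 library, with adjusted p of 5.71e-05 to 0.00435 and of 0.000570 to 0.0312. The first ended with the adipocyte marker mean as a covariate (adjusted p = 0.0886), and the second with divisors from the lncRNA table (adjusted p = 0.0631). Over all alternatives these were the highest values.

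Gm36840, which lies over Plb1 on the opposite strand, had the largest fall. Plb1 encodes a phospholipase B. The levels were 0.549, 0.0775, 0 and 0.218 scaled FPKM in Met, 0.526, 0.147, 0.285 and 0.490 in Met-Met and 2.26, 1.92, 1.05 and 1.77 in Control. All 8 libraries of Met and Met-Met were below all 4 of Control. The log2 fold change was −1.69 ± 0.25 in Met (adjusted p = 0.00132) and −1.38 ± 0.25 in Met-Met (adjusted p = 0.00873), against the same Control libraries. Leaving out any 1 library kept both calls, and the adipocyte marker mean as a covariate ended both (adjusted p = 0.149 and 0.222). Adipocyte markers were also lower in both groups than in Control, so marker level and group cannot be told apart here. The Met-Met call also ended without the 6 libraries with lymphocyte markers.

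Among the other rises, Ttc39aos1 was at 4.10, 9.09, 12.1 and 5.06 scaled FPKM in Met, 2.77, 9.15, 4.41 and 4.54 in Met-Met and 2.19, 1.96, 1.74 and 2.65 in Control. It rose by 1.51 ± 0.33 log2 units in Met (adjusted p = 0.0166), and every Met library was above every Control library. Gm43569 was at 0.947, 2.58, 0.821 and 0.909 scaled FPKM in Met, 0.304, 0.541, 0.277 and 0.221 in Met-Met and 0.210, 0.216, 0.465 and 0.321 in Control. It rose by 1.09 ± 0.24 log2 units in Met against Control (adjusted p = 0.0168) and fell by 1.04 log2 units in Met-Met against Met (adjusted p = 0.0260). Met 2 set much of the first value, and that library also carried the muscle markers. Leaving it out kept that call. Ttc39aos1 lost its call without Met 3 or Control 2 (adjusted p at most 0.0586), and Gm43569 lost its call against Control without Control 2 (0.0598) and its call in Met-Met without Met-Met 1, 3 or 4 (at most 0.0940).

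Gm16124, which lies over Cul5, a cullin scaffold of ubiquitin ligases, on the opposite strand, was at 5.02, 10.3, 8.51 and 6.63 scaled FPKM in Met, 3.47, 3.70, 4.02 and 3.03 in Met-Met and 4.57, 3.49, 3.87 and 4.20 in Control. It rose by 0.80 ± 0.20 log2 units in Met against Control (adjusted p = 0.0276), and was −0.96 ± 0.20 in Met-Met against Met (adjusted p = 0.0139). The Met libraries did not overlap those of either other group. The remaining rises in Met were Gm42067 (1.16), Gm11730 (1.10), Gm17225 (0.88), Gm12530 (0.72), Zfp335os (0.71) and Gm4285 (0.68 log2 units), with adjusted p of 0.0220 to 0.0382. Zfp335os faces Zfp335, a zinc finger factor. Gm4285 is described with its locus below.

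Beside Gm36840, 5 antisense genes fell. Hotairm1, an antisense RNA best known from myeloid cells, was at 1.15, 0.679, 0.348 and 0.358 scaled FPKM in Met, 0.331, 0.738, 0.686 and 1.28 in Met-Met and 1.35, 2.58, 1.46 and 1.73 in Control. Its log2 fold change in Met was −1.03 ± 0.26 (adjusted p = 0.0300), and Met 1 came closest to the Control libraries. The other falls were Gm14286 (−0.92), Zeb2os (−0.84), Gm17163 (−0.81) and Gm43076 (−0.81 log2 units), with adjusted p of 0.0166 to 0.0366.

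Most of the 16 calls depended on single libraries. There were 3 without Control 2, 5 without Met 3, 7 without Met 1, 9 without Control 1 and 9 without Control 3, and the calls of Gm12863 and Gm36840 were the only ones kept in all 12 such fits. Without the 3 libraries with high Gm26917 there were 14 (11 higher, 3 lower), 9 of them from the 16. The 6 libraries with lymphocyte markers hold 3 of the 4 Control libraries, and without them 3 remained (1 higher, 2 lower), 2 of them from the 16. With the B cell marker mean as a covariate there were 6, and with the adipocyte marker mean 0 by limma, where 16 had an unadjusted p under 0.05.

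**Figure D3:**
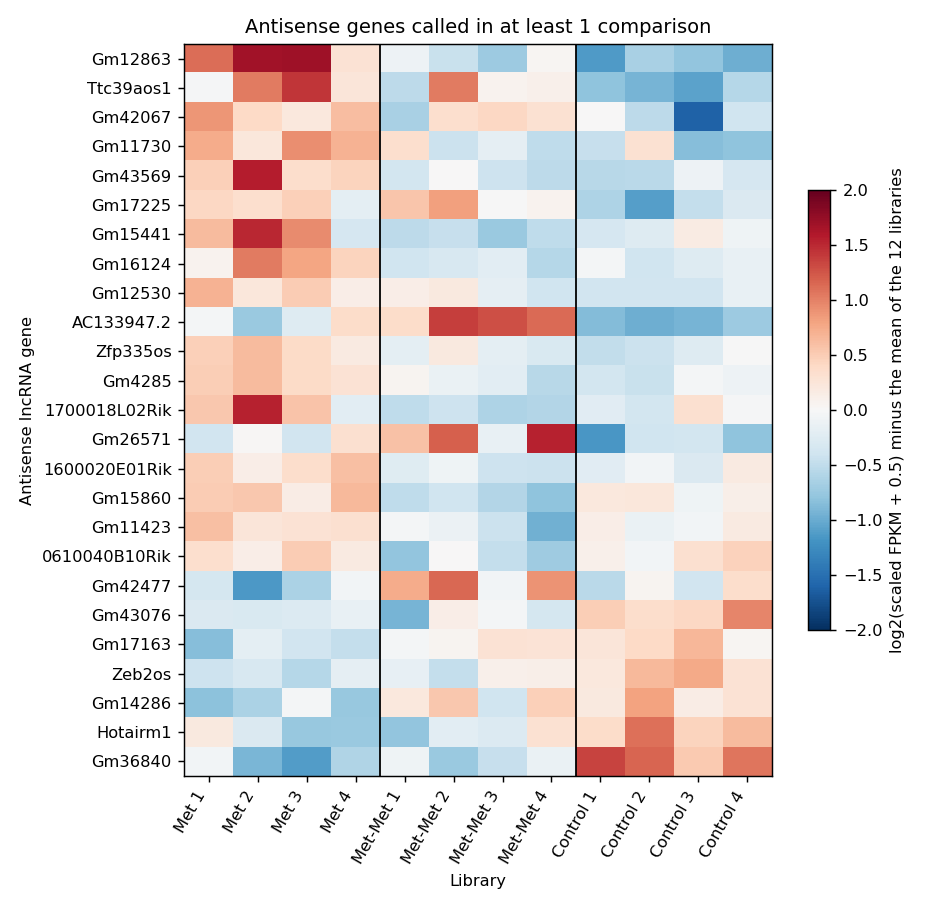
Levels of the 25 antisense genes called in at least 1 comparison, as log2(scaled FPKM + 0.5) minus each gene's mean over the 12 libraries, 1 column per library. Rows run by the difference between the Met and Control means. Gm12863 is highest in all 4 Met libraries, AC133947.2 is highest in Met-Met 2, 3 and 4, and Gm36840 is highest in the 4 Control libraries.

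In Met-Met against Control, 6 of 153 antisense genes changed (3.92%), against 3.72% of all tested lncRNA genes, 3 up and 3 down, against 1.01% and 2.70% of all tested. At an unadjusted p under 0.05 there were 31 (20.3%, against 21.3% of all tested), and the groups did not overlap in 20 (13.1%, against 11.3% of all tested). The median log2 fold change was −0.07, against −0.19 over all tested lncRNA genes. With FPKM as deposited the split was 3 higher and 10 lower, and with divisors from lncRNA genes, 6 were higher and 2 lower.

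AC133947.2 led the rises. It was at 0.891, 2.31, 2.15 and 1.88 scaled FPKM in Met-Met, 0.554, 0.149, 0.404 and 0.898 in Met and 0.0906, 0.0474, 0.0677 and 0.154 in Control. All Met-Met libraries were above all Control libraries, and Met-Met 1 was within the Met range. The log2 fold change was 1.92 ± 0.25 (adjusted p = 0.00130) in Met-Met against Control and 1.21 ± 0.25 (adjusted p = 0.0139) in Met-Met against Met. The first was kept in all 12 fits without 1 library and ended with the adipocyte covariate (adjusted p = 0.0924). The second had an adjusted p of 0.0502 without Met-Met 4.

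Gm26571 was at 1.17, 2.06, 0.513 and 2.74 scaled FPKM in Met-Met, 0.359, 0.637, 0.355 and 0.889 in Met and 0, 0.346, 0.368 and 0.138 in Control. It rose by 1.48 ± 0.31 log2 units in Met-Met against Control (adjusted p = 0.0184). The call ended without Met-Met 4 or Control 1 (adjusted p at most 0.0724). Gm17225 was at 1.66, 2.10, 0.952 and 1.04 scaled FPKM in Met-Met, 1.45, 1.35, 1.55 and 0.780 in Met and 0.458, 0.183, 0.555 and 0.697 in Control. Its log2 fold change was 0.98 in Met-Met (adjusted p = 0.0321) and 0.88 in Met (adjusted p = 0.0360), with both groups above every Control library. The first call was lost in 5 and the second in 6 of the 12 fits without 1 library, with adjusted p up to 0.106 and 0.119.

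Among the falls, Gm43076 was at 0.652, 1.90, 1.64 and 1.22 scaled FPKM in Met-Met, 1.3, 1.27, 1.32 and 1.48 in Met and 2.58, 2.29, 2.42 and 3.83 in Control. Its log2 fold change was −0.85 ± 0.22 in Met-Met (adjusted p = 0.0406) and −0.81 ± 0.22 in Met (adjusted p = 0.0366). These were kept in 1 and 5 of the 12 fits without 1 library. Gm15860 was at 0.215, 0.274, 0.182 and 0.0840 scaled FPKM in Met-Met, 0.952, 0.990, 0.634 and 1.10 in Met and 0.679, 0.693, 0.461 and 0.612 in Control. The Met-Met libraries were below all others. It fell by 0.69 log2 units in Met-Met against Control (adjusted p = 0.0285), and was −1.04 ± 0.16 against Met (adjusted p = 0.00310), the second kept in all 12 fits without 1 library and the first in 7. Bcl7a, which it overlaps in RefSeq, was at 5.0, 5.70, 5.42 and 4.64 scaled FPKM in Met-Met, 6.21, 6.25, 6.32 and 4.27 in Met and 6.87, 6.30, 5.38 and 6.38 in Control, and was not called.

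Counts of Met-Met against Control moved with single libraries: 2 without Met-Met 4, 2 without Control 1, 3 without Met-Met 1 or Control 2, and 11 without Met-Met 2. A minimum mean of 1 left 81 antisense genes tested and 0 called by limma, with 17 at an unadjusted p under 0.05.

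In Met-Met against Met, 12 of 153 antisense genes changed (7.84%), against 4.95% of all tested lncRNA genes. By gene type, the called share was 9.09% of lincRNA, 5.67% of processed_transcript and 1.47% of TEC genes. Of the 12 antisense genes, 2 rose and 10 fell, against 1.13% and 3.83% of all tested. The groups did not overlap in 22 (14.4%, against 9.46%), and 36 had an unadjusted p under 0.05 (23.5%, against 15.7%). Those shares were 15.0% and 24.1% of lincRNA, 13.5% and 18.4% of processed_transcript and 3.31% and 5.51% of TEC genes. The median log2 fold change was −0.16, against −0.10 over all tested lncRNA genes. Other scalings gave 5 to 6 fewer calls, with 2 higher and 5 lower for FPKM as deposited, 3 and 3 with divisors from lncRNA genes and 2 and 4 with quantile normalization.

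Beside AC133947.2, the other rise was Gm42477, at 2.38, 3.33, 1.17 and 2.74 scaled FPKM in Met-Met, 0.857, 0.277, 0.610 and 1.17 in Met and 0.685, 1.29, 0.822 and 1.70 in Control. It rose by 1.23 ± 0.29 log2 units in Met-Met against Met (adjusted p = 0.0260), and Met-Met 3 and Met 4 were both at 1.17. It lost the call in 6 of 12 fits without 1 library. Among the falls, Gm15441 and 1700018L02Rik are described with their loci below. The remaining falls were 0610040B10Rik (−0.78), Gm11423 (−0.75) and 1600020E01Rik (−0.69 log2 units), with adjusted p of 0.0303 to 0.0432. Of the 12 calls, 2 remained in 12 of 12 fits without 1 library, those of Gm12863 and Gm15860. The count was 2 without Met-Met 4, 4 without Met 3, 5 without Met 1 and 7 without Met 2, Met-Met 1 or Met-Met 3. It was 6 without the 3 libraries with high Gm26917, and all of these were among the 12.

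Coding genes at the loci of these RNAs were read from the same fits. They were chosen after their values were seen, and their coding background was 28.3% of 11818 genes called in Met against Control (13.6% higher, 14.7% lower). It was 20.1% in the Met-Met contrast with Control (10.8% higher, 9.30% lower) and 11.7% in Met-Met against Met (5.93% higher, 5.72% lower). Lao1 was at 1440, 1641, 1857 and 1426 scaled FPKM in Met, 958, 912, 779 and 1119 in Met-Met and 704, 871, 983 and 718 in Control. As for Gm12863 and the luminal marker sum, all Met libraries were above all others, while the mean log2 level of the luminal markers overlapped. The sums and mean log2 levels of the myoepithelial and fibroblast markers were lower in every Met library than in all others. The part of these markers was not tested. Lao1 rose by 0.96 ± 0.14 log2 units in Met against Control (adjusted p = 0.000934) and was −0.76 ± 0.14 in Met-Met against Met (adjusted p = 0.00808). Over all libraries Gm12863 averaged 15.8 and Lao1 1117 scaled FPKM. The second Lao1 call ended without the 3 libraries with high Gm26917 (adjusted p = 0.0585). It also ended with divisors from the lncRNA table and without the 6 libraries with lymphocyte markers. The first Lao1 call ended without those 6, which include most Control libraries, and with the adipocyte marker mean as a covariate. Over all alternatives the log2 fold change was 0.65 to 1.19 for the first call and −0.85 to −0.50 for the second.

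Plb1 was at 0.796, 0.962, 0.872 and 0.640 scaled FPKM in Met, 1.35, 1.46, 3.54 and 3.05 in Met-Met and 9.85, 8.49, 5.67 and 4.62 in Control. The 3 groups did not overlap. It fell by 2.12 log2 units in Met against Control (SE 0.24, adjusted p = 0.000247) and by 1.29 in Met-Met against Control (adjusted p = 0.00448). Both calls were kept in all 12 fits without 1 library, but ended without the 6 libraries with lymphocyte markers, with the adipocyte covariate and with each transcript on its own, where adjusted p reached 0.284 and 0.875. Over these alternatives the Met-Met value came as near to 0 as −0.23. In Met-Met against Met it rose by 0.83 (adjusted p = 0.0476), a call lost in 8 of 12 fits without 1 library. For Gm36840 that log2 fold change was 0.31 (adjusted p = 0.603).

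Gm4285 lies within 10 kb of Tpt1, which encodes the translationally controlled tumour protein, on the opposite strand. It was at 5.64, 6.26, 5.22 and 4.84 scaled FPKM in Met, 4.03, 3.5, 3.26 and 2.49 in Met-Met and 2.89, 2.72, 3.76 and 3.58 in Control. Tpt1 was at 2839, 2874, 2387 and 2090 scaled FPKM in Met, 1354, 1191, 1731 and 1554 in Met-Met and 1311, 1348, 1657 and 1481 in Control. Both genes were higher in every Met library than in any other library. So was the luminal marker sum, but not the mean log2 level of the luminal markers. The sums and mean log2 levels of the myoepithelial and fibroblast markers were lower in every Met library than in any other. The part of these markers was not tested. The log2 fold change of Met-Met against Met was −0.66 for Gm4285 (adjusted p = 0.0390) and −0.81 for Tpt1 (adjusted p = 0.00624). Tpt1 kept its call in all 12 fits without 1 library, and Gm4285 in 5. The call of Gm4285 in Met against Control ended without the 3 libraries with high Gm26917 (adjusted p = 0.0504).

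Gm15441 lies over Txnip, which encodes a thioredoxin-interacting protein that responds to glucose. It was at 1.11, 2.45, 1.49 and 0.324 scaled FPKM in Met, 0.226, 0.251, 0.121 and 0.231 in Met-Met and 0.327, 0.367, 0.667 and 0.479 in Control. Txnip was at 643, 853, 740 and 391 scaled FPKM in Met, 328, 170, 89.5 and 155 in Met-Met and 305, 113, 606 and 504 in Control. Met 4 was the lowest Met library for both genes, and all Met libraries were above all Met-Met libraries. In Met-Met against Met, Gm15441 fell by 1.24 log2 units (adjusted p = 0.0260) and Txnip by 1.91 (adjusted p = 0.0305), each lost without Met 1, 2 or 3 or without Met-Met 3 or 4, and Txnip also without Met-Met 2. 1700018L02Rik, which lies over Ak3, a mitochondrial adenylate kinase, was at 0.836, 2.17, 0.868 and 0.295 scaled FPKM in Met, 0.153, 0.192, 0.101 and 0.118 in Met-Met and 0.292, 0.213, 0.649 and 0.411 in Control. It fell by 1.13 log2 units in Met-Met against Met (adjusted p = 0.0303), a call kept in 5 of 12 fits without 1 library. Ak3 averaged 103 ± 26.9 scaled FPKM in Met, 68.4 ± 7.47 in Met-Met and 57.0 ± 7.15 in Control, and was called in Met against Control only (0.81, adjusted p = 0.00474).

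Coding genes near other called antisense genes did not pass the test in the comparison where the antisense gene changed. In Met-Met against Met, Cul5 was at −0.06 beside Gm16124 (−0.96), and Pcbp1, an RNA-binding protein, at 0.24 beside 1600020E01Rik (−0.69). Lig3, a DNA ligase, was at 0.16 beside Gm11423 (−0.75), and Zdhhc4 at 0.03 beside 0610040B10Rik (−0.78 log2 units). In Met against Control, Dpf2 was at −0.09 beside Gm42067 (1.16) and Cul5 at 0.41 beside Gm16124 (0.80 log2 units, adjusted p = 0.0531 for Cul5).

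**Figure D4:**
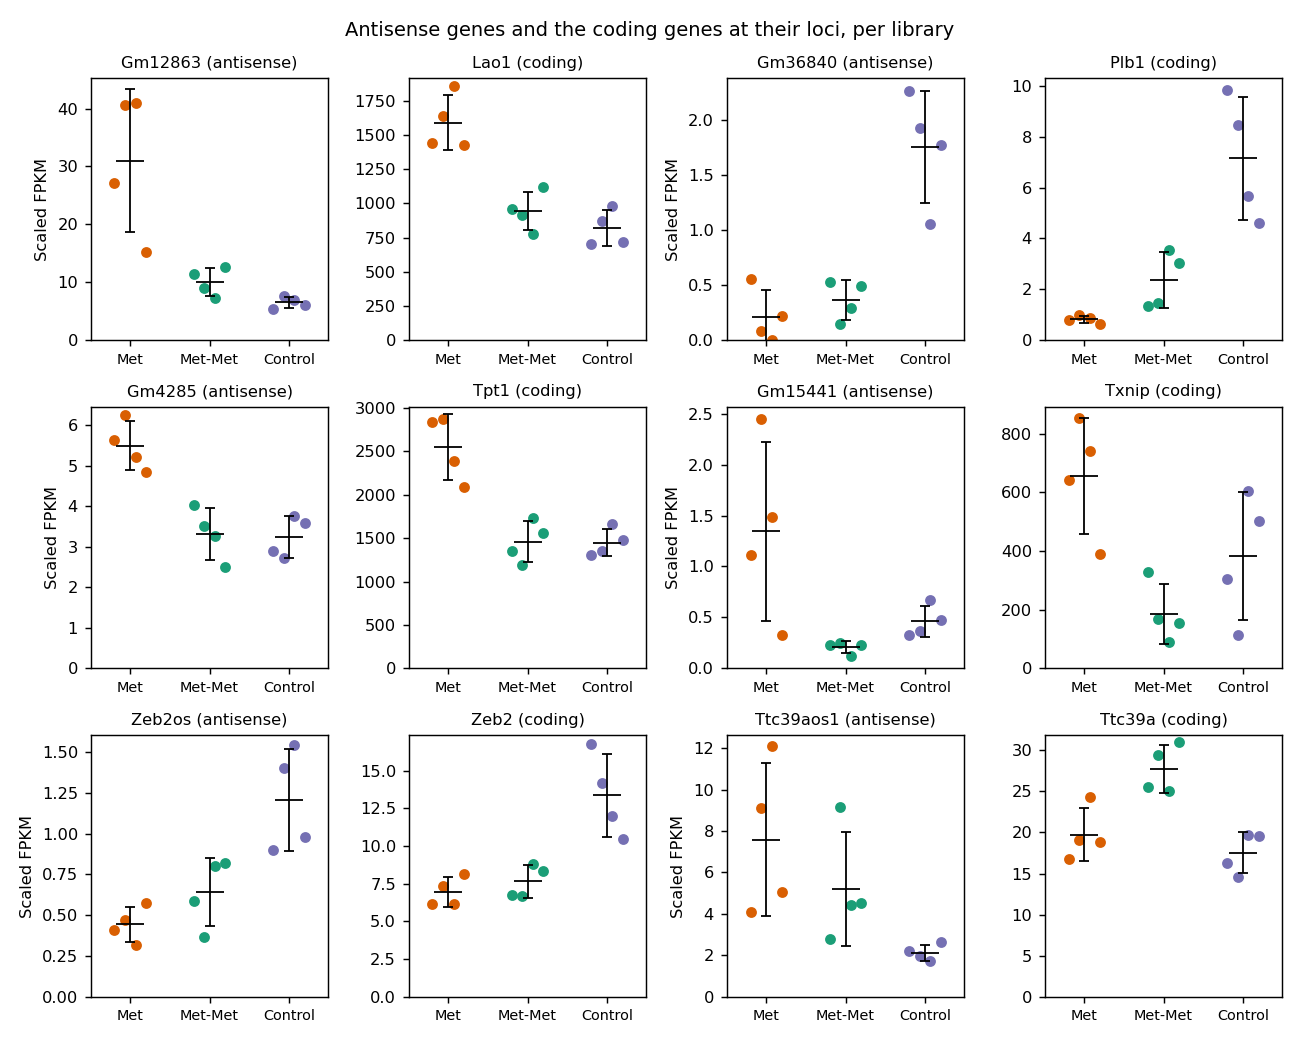
Scaled FPKM per library of 6 antisense genes and the coding genes at their loci, with 4 libraries per group (points), the mean (bar) and the SD (whiskers). Gm12863 with Lao1 and Gm4285 with Tpt1 are highest in Met, while Gm36840 with Plb1 and Zeb2os with Zeb2 are highest in Control. Ttc39aos1 is higher in Met than in Control, and Ttc39a is higher in Met-Met than in Met and Control.

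The symbol pairs offer a partner that was chosen by name alone. Of the 45 pairs, 23 had an antisense gene at or above the minimum and 16 had both genes above theirs. RefSeq matched 33 of the 45 antisense genes and gave a strand for 26, and in 14 of these the named gene was on the opposite strand over them. Over the 16 pairs the antisense level was 4.20% (Tmem51os1) to 173% (Brip1os) of the sense level, with a median of 15.1%, on the FPKM scale, which is per length. Brip1os, named for the helicase gene Brip1, and Tnfsf13os (117%), named for the cytokine gene Tnfsf13 (APRIL), exceeded the genes they are named for. In RefSeq, however, Brip1os lies over Ints2 and Med13 and only within 10 kb of Brip1, with no strand given. Tnfsf13os also lies over Senp3, Tnfsf12 and the fusion gene Tnfsfm13. Another 7 tested antisense genes (Grin1os, Frmpd1os, Chrna1os, Mypopos, Ctcflos, Ccdc142os and Prox2os) were named for a sense gene under the coding minimum of 1 scaled FPKM, and 6 of these antisense genes had the higher mean. None of the 7 was called by limma in any comparison. An unadjusted p under 0.05 was had by 4 in Met against Control, against 24.9% of all tested lncRNA genes. It was had by 4 in the Met-Met contrast with Control (21.3% of all tested) and by 0 in Met-Met against Met (15.7%). Prox2os (adjusted p = 0.0625 in Met against Control, by limma) was at 0.256 to 0.485 scaled FPKM in Met and 0.820 to 0.881 in Control.

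Of the 23 tested antisense genes of these pairs, 3 were called in Met against Control (13.0%, against 8.22% of all tested), and 0 in Met-Met against Control or against Met by limma. At an unadjusted p under 0.05 there were 11, 8 and 5 of the 23, where the shares of all tested lncRNA genes were 24.9%, 21.3% and 15.7%. Of the 32 tested sense genes, 5 changed in Met against Control (15.6%, against 28.3% of coding genes), 4 up and 1 down. In Met-Met against Control 7 changed (21.9%, against 20.1%), 6 up and 1 down, and in Met-Met against Met 4 changed (12.5%, against 11.7%), 1 up and 3 down. With FPKM as deposited these splits were 0 up and 6 down, 2 up and 1 down, and 4 up and 1 down. With divisors taken from lncRNA genes, 0 sense genes were called by limma in Met against Control and in Met-Met against Met, with 7 and 8 at an unadjusted p under 0.05. Sense and antisense fold changes had the same sign in 13 of 16 pairs in Met against Control, 8 in Met-Met against Control and 9 in Met-Met against Met.

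Zeb2 was the only pair with both genes called, in Met against Control. Zeb2 encodes a repressor best known in the epithelial to mesenchymal transition. Zeb2os was at 0.410, 0.471, 0.317 and 0.575 scaled FPKM in Met, 0.584, 0.368, 0.799 and 0.817 in Met-Met and 0.900, 1.40, 1.54 and 0.978 in Control. Zeb2 was at 6.13, 7.35, 6.15 and 8.17 scaled FPKM in Met, 6.73, 6.68, 8.82 and 8.37 in Met-Met and 16.8, 14.2, 12 and 10.5 in Control. All Control libraries were above all other libraries for both genes. Zeb2 fell by 0.84 log2 units in Met against Control (adjusted p = 0.00170) and by 0.72 in Met-Met against Control (adjusted p = 0.00567). Zeb2os fell by 0.84 in Met (adjusted p = 0.0166) and was −0.58 in Met-Met (adjusted p = 0.0842). The call of Zeb2os ended without Met 3 or Control 2 (adjusted p at most 0.0598). With the B cell marker mean as a covariate the call of Zeb2 in Met was kept and that of Zeb2os was lost. With the adipocyte marker mean both were lost, and so was the Zeb2 call in Met-Met. Adipocyte markers were lower in both groups than in Control, so marker level and group cannot be told apart here. Without the 6 libraries with lymphocyte markers, which include most Control libraries, the Zeb2os call and both Zeb2 calls were lost. Both Zeb2 calls also ended with divisors from the lncRNA table. With each transcript on its own, the Zeb2os call and the Zeb2 call in Met-Met were lost. Over all alternatives the log2 fold change of Zeb2 was −1.17 to −0.47 in Met and −0.95 to −0.28 in Met-Met against Control.

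**Figure D5:**
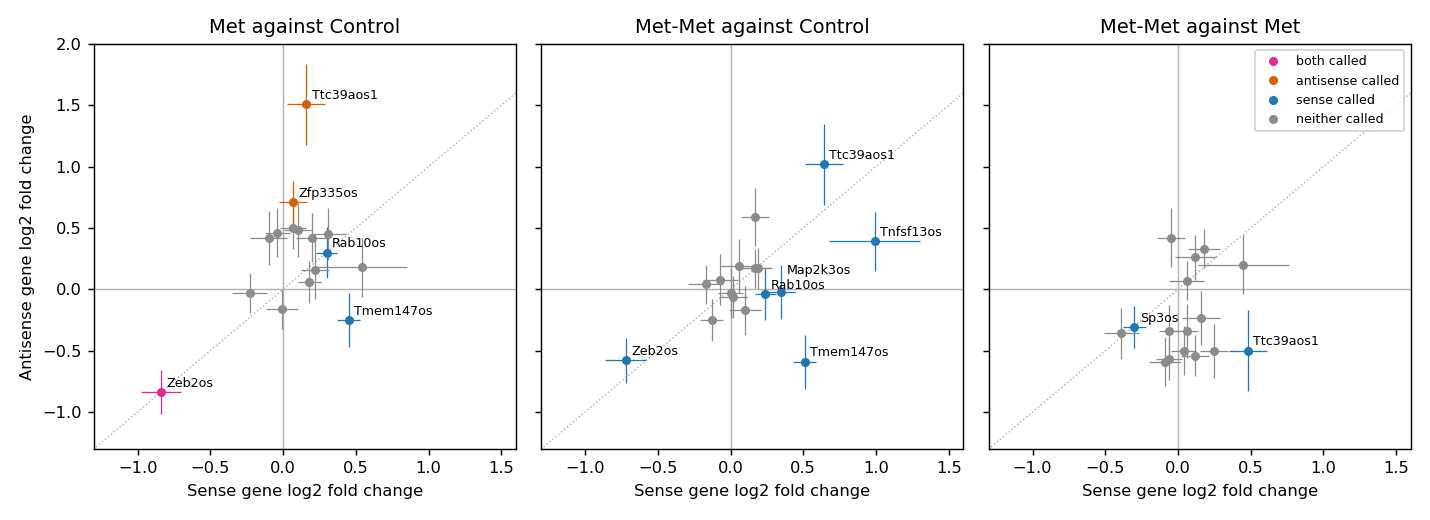
Log2 fold changes of the antisense gene (vertical) and of its named sense gene (horizontal) for the 16 pairs with both genes tested, in the 3 comparisons. Whiskers are standard errors, the dotted line marks equal changes, colours show which gene was called, and pairs with a called gene are named. Zeb2os and Zeb2 lie low on both axes in Met against Control, Ttc39aos1 stands above the line and Tmem147os below it.

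Where a pair held a called gene, the difference between the log2 levels of both genes was taken per library, for 13 differences over the 3 comparisons. Since a call on the same libraries chose the pairs, these differences are a description and carry no test. Ttc39aos1 minus Ttc39a was −1.43 ± 0.49 (SD) in Met and −2.78 ± 0.26 in Control, a difference of 1.35 (n = 4 each). The antisense gene rose there while Ttc39a was at 16.8, 19.1, 24.3 and 18.8 scaled FPKM in Met and 16.3, 14.6, 19.7 and 19.6 in Control. Ttc39a, a tetratricopeptide repeat gene, was at 25.5, 29.4, 25.1 and 31.0 in Met-Met, and rose by 0.64 against Control (adjusted p = 0.00594) and by 0.48 against Met (adjusted p = 0.0318, lost without Met 1, Met 2, Met-Met 2 or Met-Met 4). Tmem147os minus Tmem147 was −4.25 ± 0.26 in Met and −3.54 ± 0.22 in Control, a difference of −0.70 (n = 4 each).

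Tmem147, a membrane protein of the endoplasmic reticulum, was at 54.2, 56.1, 54.3 and 48.3 scaled FPKM in Met, 58.6, 54.7, 53.5 and 55.5 in Met-Met and 35.2, 36.5, 41.3 and 42.1 in Control. Tmem147os was at 2.65, 1.98, 2.07 and 2.67 scaled FPKM in Met, 2.40, 2.54, 1.01 and 1.38 in Met-Met and 2.97, 2.83, 2.36 and 3.35 in Control. The sense gene rose by 0.45 in Met and by 0.51 in Met-Met (adjusted p = 0.00211 and 0.00195), and its antisense was −0.25 and −0.59 with neither called. The pair difference in Met-Met against Control was −1.10 (n = 4 each). For Zeb2os and Zeb2 the difference was 0.04 in Met against Control.

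Further pairs had a sense gene that changed while the antisense gene did not pass the test. Map2k3, the kinase that activates p38, rose by 0.35 in Met-Met against Control (adjusted p = 0.0256), and Map2k3os was at −0.02. That call was lost in 5 of 12 fits without 1 library. Rab10, a GTPase of vesicle transport, rose by 0.30 in Met and 0.24 in Met-Met (adjusted p = 0.0107 and 0.0376), and Rab10os was at 0.30 and −0.04. The Rab10 change in Met against Control was −0.01 with FPKM as deposited. Tnfsf13 was at 9.44, 30.8, 9.04 and 9.33 scaled FPKM in Met-Met and 5.73, 5.56, 5.58 and 6.62 in Control, so Met-Met 2 set much of the rise of 0.99 (adjusted p = 0.0434), although the call was kept without it. It was lost without any 1 Control library, and without Met 1 or Met 3. It also ended for FPKM as deposited, with only the 8 libraries compared and with each transcript on its own, among other alternatives. The fusion gene Tnfsfm13 was at 11.1, 5.64, 8.10 and 14.6 scaled FPKM in Met-Met and 11.4, 11.2, 14.7 and 13.9 in Control. Its log2 fold change was −0.41 against Control and −0.73 against Met (adjusted p = 0.193 and 0.0452). How reads were shared between Tnfsf13 and Tnfsfm13 was not tested. Sp3, a zinc finger factor, fell by 0.30 in Met-Met against Met (adjusted p = 0.0289), and Sp3os was at −0.31 (adjusted p = 0.411). The Met-Met call of Rab10 and the call of Sp3 were each lost in 6 of 12 fits without 1 library.

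Of the 45 pairs, 22 had an antisense gene under the minimum, and their sense genes were still tested. Rbm3, a cold-inducible RNA-binding protein, was at 175, 222, 191 and 143 scaled FPKM in Met, 104, 103, 136 and 129 in Met-Met and 114, 123, 115 and 119 in Control. It rose by 0.61 in Met against Control (adjusted p = 0.00595) and fell by 0.62 in Met-Met against Met (adjusted p = 0.0126), while Rbm3os had a mean of 0.317 scaled FPKM. Topors, a ubiquitin and SUMO ligase, rose by 0.34 in Met against Control (adjusted p = 0.00467) and fell by 0.34 in Met-Met against Met (adjusted p = 0.0106), with Toporsos at 0.0928. Arf4, a GTPase of the Golgi, rose by 0.62 in Met-Met against Control (adjusted p = 0.0113), with Arf4os at 0.122. Each of these calls was kept in all 12 fits without 1 library and ended without the 6 libraries with lymphocyte markers. Both Rbm3 and both Topors calls also ended with divisors from the lncRNA table. With FPKM as deposited, the first Rbm3 call, both Topors calls and the Arf4 call ended. Quantile normalization ended the first Rbm3 call and the Arf4 call. Arhgap27 gives its name to 3 listed antisense genes, of which Arhgap27os3 was at 1.18, 1.3 and 0.969 scaled FPKM in Control 1 to 3 and at 0.0361 to 0.613 in the other 9 libraries. The 6 libraries with lymphocyte markers include those 3.

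Among imprinted antisense RNAs, Airn, which silences Igf2r and its neighbours on the paternal chromosome, averaged 4.36 ± 1.78 scaled FPKM in Met, 6.21 ± 2.57 in Met-Met, where Met-Met 2 was at 10, and 5.27 ± 0.815 in Control (SD, n = 4 each). It was not called in any comparison by limma, at log2 fold changes of −0.31 in Met and 0.16 in Met-Met against Control. Igf2r, the receptor that clears IGF2, was at 36.1, 34.2, 27.0 and 37.1 scaled FPKM in Met-Met, 23.6, 22.9, 23.7 and 24.7 in Met and 18.9, 19.4, 26.1 and 27.7 in Control. It rose by 0.53 in Met-Met against Control (adjusted p = 0.0161) and by 0.47 in Met-Met against Met (adjusted p = 0.0386), and both calls ended without the 3 libraries with high Gm26917 (adjusted p = 0.0587 and 0.147). Kcnq1ot1 was not called, at −0.41, −0.27 and 0.13 in the 3 comparisons, while Kcnq1, the potassium channel gene over it, rose by 0.62 in Met-Met against Control (adjusted p = 0.0237, lost in 5 of 12 fits without 1 library). Nespas, the antisense RNA of the imprinted Gnas locus, had a mean of 0.171 scaled FPKM and was under the minimum.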

How the data were processed

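Total RNA of 12 mammary gland libraries was measured by RNA sequencing, 4 in each of 3 groups taken from the labels. The authors deposited FPKM per transcript for coding genes and annotated lncRNAs, and per the submitters' processing notes used HISAT2 2.0.4, Bowtie2 2.2.8 and StringTie 1.3.1. The notes name GRCm38 and mm9 without their roles. Strand use in counting is not given in the sources used here, and the tables hold no coordinates or read counts.

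Deposited FPKM were summed per gene and divided by a median-ratio factor over coding genes (0.815 to 1.20 over the libraries). Genes with a mean of at least 0.5 (lncRNA) or 1 (coding) scaled FPKM were tested on log2(value + 0.5) or log2(value + 1), with limma 3.58.1 in R 4.3.3, over all 12 libraries and with Benjamini-Hochberg adjustment over each whole table. A gene was called at an adjusted p under 0.05. Fold changes on this scale understate those of low genes. Differences between antisense and sense levels were taken per library (Python 3.11.15, scipy 1.17.1, numpy 2.4.6). An exact permutation test of them was run, but its p is not given, since calls on the same libraries chose the pairs. Figures used matplotlib 3.10.9. The fits were tested on simulated data.

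The text names the called antisense genes (up to 10 a direction), tested antisense genes with a named sense gene, the 5 highest by mean, and known imprinted RNAs. RefSeq neighbours were added after values were seen, and 1 withheld item is not reported here. Members and lists were chosen with earlier results of these data known. Alternatives were other scalings, pseudocounts, minimums, designs, marker covariates and left-out libraries.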

Additional observations from a re-analysis of the deposited data

Results flagged for a closer look

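Of 222 groups of 4 libraries examined, 12 held a library far from the other 3, and chance flags about 1 in 20 groups. Among called antisense genes, Gm43569 was at 2.58 scaled FPKM in Met 2 (others 0.821 to 0.947), Gm42067 at 2.61 in Met-Met 1 (others 5.57 to 6.01) and Gm12530 at 0.888 in Control 4 (others 0.677 to 0.680).

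Met-Met 2, 1 of the 3 libraries with high Gm26917, stood above its group for 4 genes. It was at 10 scaled FPKM for Airn (others 4.49 to 5.17), 3.57 for Kcnq1ot1 (others 1.66 to 1.88), 0.900 for Prox2os (others 0.308 to 0.407) and 30.8 for the coding gene Tnfsf13 (others 9.04 to 9.44). In Met 3 and Met 4, also high in Gm26917, Tnfsf13 was at 9.39 and 6.43 scaled FPKM, against 9.59 and 11.1 in Met 1 and Met 2. The Airn transcript with the highest mean was at 1.24 and 4.78 in Met 3 and Met 4, against 3.16 and 2.05. The link to Gm26917 was not tested.

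Control 4 was at 6.48 scaled FPKM for Airn (others 4.71 to 4.99) and at 6.62 for Tnfsf13 (others 5.56 to 5.73). Grin1os was at 0.337 in Met 2 (others 0.865 to 0.929). Map2k3 was at 19.7 in Control 3 (others 16.5 to 17.0). Ctcfl was at 0.00974 in Met-Met 4 and listed at 0 in the other 3 Met-Met libraries.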

How the results depend on the processing

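No antisense call reversed its direction under any alternative. Of the 34 antisense calls over the 3 comparisons, 24 of 33 with a value were kept for FPKM as deposited, 24 with divisors from the lncRNA table, 25 with quantile normalization, 34 with a pseudocount of 0.1 or 1, 21 when the 3 libraries high in Gm26917 were left out, 9 when the 6 carrying lymphocyte markers were, 19 with the B cell marker covariate and 12 with the adipocyte marker covariate. The causes of the changes below were not tested.

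The antisense count in Met against Control (16) was 25 with quantile normalization, 10 with a minimum mean of 1, 3 without the lymphocyte marker libraries, 6 with the B cell and 0 with the adipocyte covariate (16 at an unadjusted p under 0.05 by limma), and 3 to 20 without 1 library. In Met-Met against Control (6) it was 13 for FPKM as deposited, 0 with a minimum mean of 1, 2 without the lymphocyte marker libraries, 1 with the adipocyte covariate, and 2 to 11 without 1 library. In Met-Met against Met (12) it was 7 for FPKM as deposited, 6 with lncRNA divisors, 6 with quantile normalization, 7 with a minimum mean of 1, 5 with only the 8 libraries compared, 6 without high Gm26917, 7 without the lymphocyte marker libraries, and 2 to 13 without 1 library.

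The sense count in Met against Control (5) was 0 with lncRNA divisors, without the lymphocyte marker libraries and with the adipocyte covariate (7, 5 and 3 at an unadjusted p under 0.05 by limma), 3 with the B cell covariate, and 5 to 7 without 1 library. In Met-Met against Control (7) it was 3 for FPKM as deposited, 4 with each transcript on its own, 0 without the lymphocyte marker libraries and with the adipocyte covariate (4 and 3 unadjusted), and 4 to 8 without 1 library (4 without Control 1 or Control 2). In Met-Met against Met (4) it was 0 with lncRNA divisors and without the lymphocyte marker libraries (8 and 8 unadjusted), 2 with the 8 libraries compared, with each transcript on its own and without high Gm26917, and 2 to 9 without 1 library (2 without Met 1, Met 2, Met-Met 2 or Met-Met 4, and 9 without Met 4).

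With the replicate number as a block, the antisense counts were 7, 3 and 7. Same-numbered libraries deviated with r of −0.365 to 0.122 over 12 pairs in the lncRNA table and of −0.407 to 0.168 over 12 in the coding table. Whether the numbers pair the samples is not in the labels, and these correlations cannot decide it.

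Differences between antisense and sense levels changed sign where they were near 0. Zeb2os was −0.33 in Met and −0.04 in Met-Met against Control with a pseudocount of 0.1, and without 1 library −0.16 to 0.18 and −0.02 to 0.31. Rab10os in Met was 0.02 with that pseudocount, 0.03 for FPKM as deposited and −0.07 to 0.07 without 1 library. Sp3os in Met-Met against Met was 0.02 with a pseudocount of 1 and −0.06 to 0.08 without 1 library. Zfp335os in Met was 0.82 with a pseudocount of 0.1 and 0.70 for FPKM as deposited, against 0.64. Ttc39aos1 in Met was 1.20 to 1.51 without 1 library, Tmem147os −0.81 to −0.61 in Met and −1.26 to −0.93 in Met-Met. Among single genes, Rab10 in Met against Control was −0.01 for FPKM as deposited, and Tnfsf13 in Met-Met against Control was −0.41 with the adipocyte covariate. The depth behind the FPKM is unknown, and 144 of 297 antisense genes were too low to test.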
